A study of Drosophila melanogaster with 2 samples.

Results

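The genes described here encode the nuclear subunits of the mitochondrial respiratory chain and of ATP synthase in Drosophila melanogaster. They were chosen by symbol alone: protein-coding genes of the nuclear genome whose symbol begins with ND- (complex I), Sdh (complex II), UQCR- (complex III), COX and a digit (complex IV) or ATPsyn (complex V, the ATP synthase). The rule gave 88 of the 13968 annotated protein-coding genes, 40 of complex I, 8 of complex II, 9 of complex III, 16 of complex IV and 15 of complex V. Subunits known by other names, such as blw, levy and cype, are not among the 88, and Sdhaf3, an assembly factor of complex II, is among them by its symbol.

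The measurement was chromatin immunoprecipitation with sequencing for Zelda, the protein of zld (also named vfl), a zinc finger factor that prepares early embryonic chromatin for transcription. The single group held embryos aged 0 to 24 hours, of both sexes pooled, from a stable transgenic line in which vfl carries GFP at its C terminus. It had 2 biological replicates, numbered 2 and 3, both with the same tagged protein and no untreated or mock group among the samples. GFP was the target of the antibody by the sample descriptions, whereas the antibody field reads vfl. Whole embryos over so wide an age range mix many tissues and stages, and the lists cannot say in which cells a summit arose.

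The deposited lists hold peaks, not reads, so the read depth is unknown. Each replicate and the pool of both had a relaxed list of 30000 peaks, and a reproducibility threshold kept 2876, which were the 2876 strongest pooled peaks, at the same positions. Each peak has a signal value given by the authors, on a scale that the sources used here do not state. It is used here to rank peaks within 1 list and not to set levels in 1 list against another. A gene is called bound when the summit of a thresholded peak, its highest point, lay within 1 kb of any annotated start of a coding transcript. For each gene the strongest summit within 1 kb was taken in each list on its own, so its values can belong to different peaks.

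Oxidative phosphorylation passes electrons from NADH (through complex I) or succinate (through complex II) to complex III, cytochrome c and complex IV, and the proton gradient so built drives ATP synthase. Except for complex II, whose subunits are all nuclear, the complexes join subunits encoded in the nucleus with subunits encoded in mitochondrial DNA. The egg is supplied with mitochondria and with maternal messenger RNA for such housekeeping proteins, whereas the textbook targets of Zelda are genes switched on early in the zygote. Many Drosophila subunit genes also have a duplicate, often named with a final L, and many of these duplicates are known to be expressed in the testis.

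The sequences at the strongest summits next to these genes are shown first, since they are what the antibody enriched. For the 4 bound genes with the highest pooled signal off the right arm of the second chromosome, the stretch around the summit is given on the strand of the gene, 5′ to 3′, in dm6, with any of 11 searched words in capitals.
ND-ASHI: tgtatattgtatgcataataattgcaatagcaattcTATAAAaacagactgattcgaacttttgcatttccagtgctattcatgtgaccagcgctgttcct
ND-24: atcgcttactgttttagaaaacttatttta
COX6B: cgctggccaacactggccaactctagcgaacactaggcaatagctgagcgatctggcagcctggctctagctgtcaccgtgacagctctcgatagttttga
COX5A: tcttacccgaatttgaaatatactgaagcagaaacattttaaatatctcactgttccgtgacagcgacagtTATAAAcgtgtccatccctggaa
The stretch of ND-ASHI, chrX:6679294-6679394 on the minus strand, lay in an intron of the neighbouring gene Fum1, between the nearest starts of both genes. That of ND-24, chrX:17632133-17632162 on the plus strand, was cut to 30 bases because the summit lay in the 5′ UTR. The stretch of COX6B, chrX:19744346-19744446 on the minus strand, had its summit between genes. For COX5A the stretch was chr3R:11819484-11819577 on the plus strand, and the summit lay in an intron of COX5A itself. The capitals in ND-ASHI and COX5A mark TATAAA, the TATA box word. None of the 4 stretches held the Zelda word CAGGTAG.

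Of the 88 genes, 18 were bound, a share of 20.5%, against 19.7% of all protein-coding genes, so the genes as a whole were bound about as often as any others. Inside that figure lay 2 unlike groups. In 24 of the 88 the symbol is that of another gene, or of a synonym of one, with L or L and a digit added, such as COX4L beside COX4. Of these L copies 1 was bound, a share of 4.17%. Of the other 64 genes 17 were bound, a share of 26.6%. No test was run on these shares, since the genes share neighbours and promoters and are not replicates.

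The same order was seen in each replicate taken alone. Among the 2876 strongest peaks of replicate 2, summits lay within 1 kb of 20 of the 88 genes (22.7%), against 19.3% of all genes. In replicate 3 the count was 18 (20.5%), against 19.4% of all genes. Over the replicates the share was 28.9% ± 3.31 for the 64 genes without L copies and 2.08% ± 2.95 for the L copies, against 19.4% ± 0.0810 for all genes (SD, n = 2). Genes found among the strongest peaks of both replicates numbered 11 of the 88 (12.5%), against 14.6% of all genes.

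**Figure D1:**
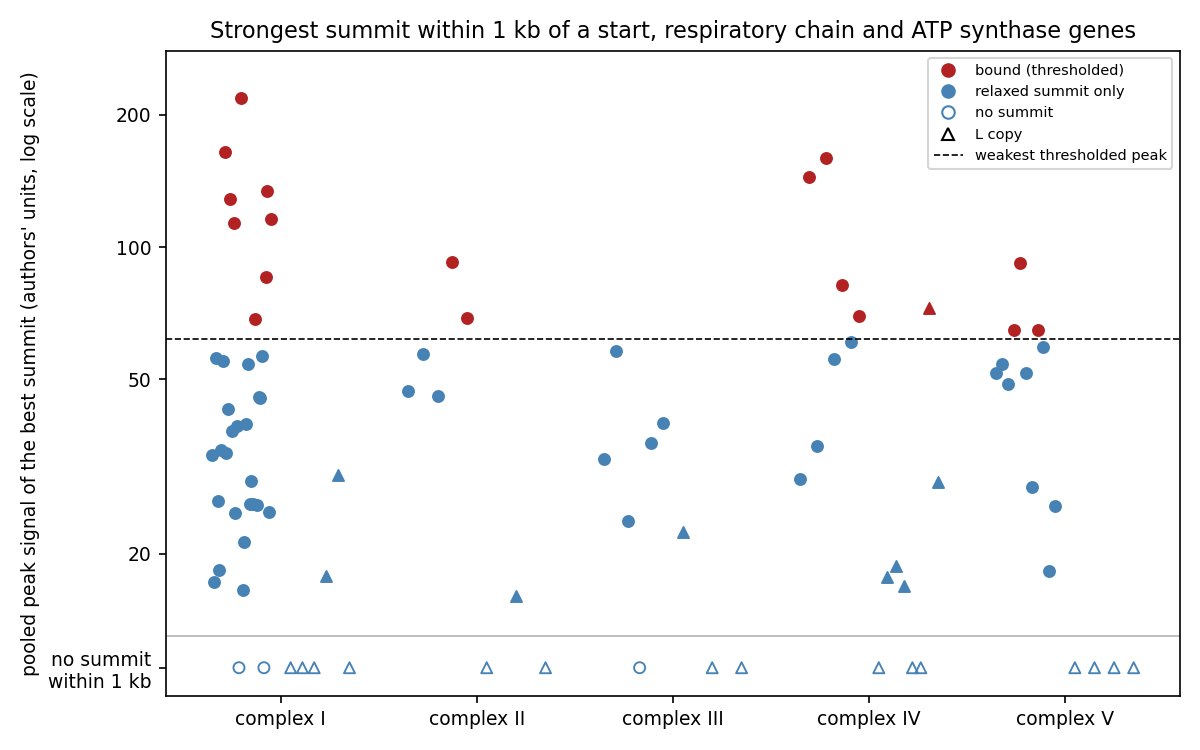
Pooled signal (authors' units, log scale) of the strongest summit within 1 kb of a start, for each of the 88 genes by complex; red points are bound, blue points have a relaxed summit only, open points on the bottom row have none, and triangles are L copies. The 18 red points lie above the dashed line at 61.8, the weakest thresholded peak, complex III has none, and 15 of 24 triangles lie on the bottom row.

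Below the threshold the plain genes were seldom without a peak. A pooled relaxed summit lay within 1 kb of 70 of the 88 genes (79.5%), against 62.9% of all genes. Without the L copies the count was 61 of 64 (95.3%), and the exceptions were ND-AGGG, ND-MLRQ and UQCR-C1. Of the L copies, 9 of 24 (37.5%) had one. With no pooled summit at all were 18 of the 88 genes (20.5%), against 37.1% of all genes.

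The band of ranks next below the threshold held many plain genes, with signals as low as 39.5 (ND-B14.5A, rank 5960). The best pooled summit ranked between 2877 and 6000 for 20 of the 88 genes (22.7%), none of them an L copy, against 13.1% of all genes. Ranks 6001 to 12000 held 13 genes (14.8%), against 13.2% of all genes, and ranks 12001 to 30000 held 19 (21.6%), against 16.9% of all genes. Counted from the top down to rank 6000, 38 of the 88 genes (43.2%) had a summit, against 32.8% of all genes. The threshold itself fell between signals of 61.82 and 61.81, and the genes nearest to it were ATPsynD (64.7, rank 2647) and ATPsynO (64.8, rank 2637) inside and COX7C (60.7, rank 2968) and ATPsynbeta (59.2, rank 3107) outside.

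**Figure D2:**
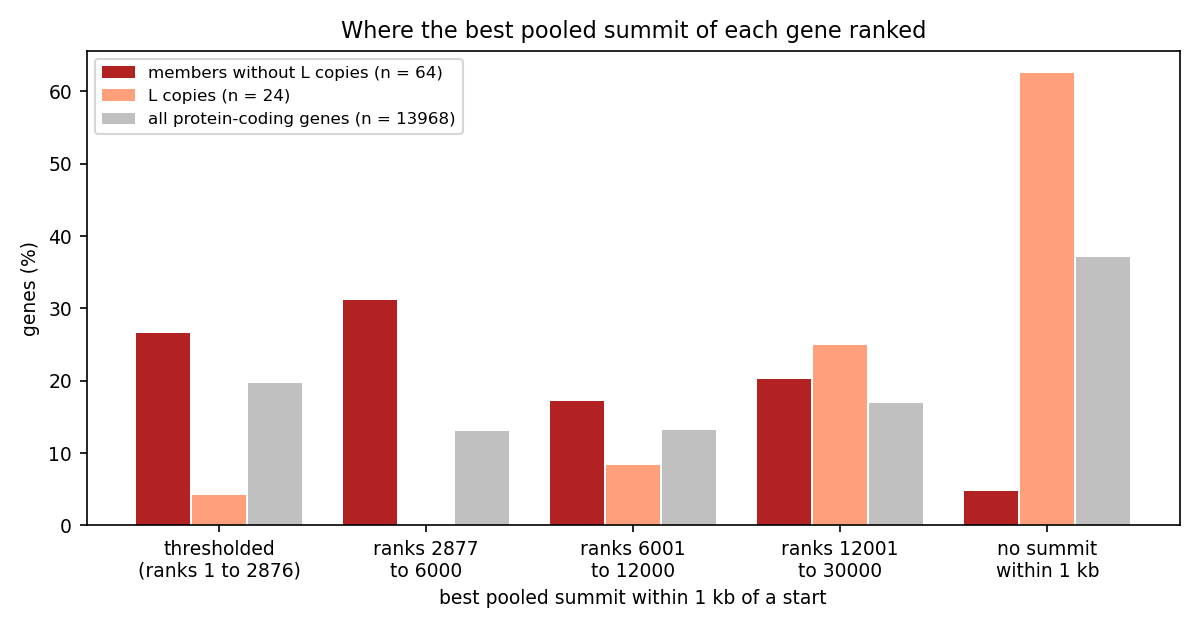
Share of genes (%) by the pooled rank of their best summit within 1 kb of a start, for the 64 genes without L copies (red), the 24 L copies (orange) and all 13968 protein-coding genes (grey). The red bars stand above the grey ones in every rank band, most in ranks 2877 to 6000 (31.2% against 13.1%), and 62.5% of the L copies had no summit.

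In complex I, which takes electrons from NADH, 8 of 40 genes were bound (20%, against 19.7% of all genes), and none of its L copies. Of the 7 core subunits encoded in the nucleus, which carry the flavin and the iron-sulfur clusters or form the quinone site, 2 were bound, and so were 6 of the 27 other plain genes. The highest signal of all 88 genes was that of ND-ASHI, an accessory subunit of the membrane arm. Its summit had a signal of 127 in replicate 2 (rank 227) and of 89.6 in replicate 3 (rank 209), and a pooled signal of 218 (rank 203). It was among the strongest peaks in both replicates. The summit lay 226 bp upstream of the nearest ND-ASHI start. It also lay 296 bp upstream of the nearest start of Fum1, a fumarase of the tricarboxylic acid cycle. Since it fell in an intron of Fum1, it lay inside that gene and not before all of its transcripts. So 1 summit lay close to starts of 2 genes of mitochondrial proteins.

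ND-24, a core subunit with an iron-sulfur cluster, had a signal of 107 in replicate 2 (rank 336) and of 59.9 in replicate 3 (rank 557), and a pooled signal of 165 (rank 386). Its summit lay 59 bp downstream of the nearest start, the single bound summit of the 18 on that side of the nearest start of its gene. ND-51, the core subunit that binds NADH and flavin, had a signal of 90.5 in replicate 2 (rank 468) and of 25.02 in replicate 3 (rank 3886), with a pooled signal of 114 (rank 886). It passed the threshold on the pool and on replicate 2, but did not reach the 2876 strongest peaks of replicate 3.

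The other bound genes of complex I code for accessory subunits. ND-MWFE had a signal of 77.4 in replicate 2 (rank 675) and 52.8 in replicate 3 (rank 762), with a pooled signal of 134. ND-42 had a signal of 83.2 in replicate 2 (rank 562) and 52.2 in replicate 3 (rank 781), with a pooled signal of 129. Both ranked high in both replicates. ND-SGDH had a signal of 95.8 in replicate 2 (rank 421) and 31.4 in replicate 3 (rank 2444), with a pooled signal of 116. ND-MNLL had a signal of 62.6 in replicate 2 (rank 1028) and 24.2 in replicate 3 (rank 4111), with a pooled signal of 85.6. These 2 ranked higher in replicate 2, and ND-MNLL was outside the strongest peaks of replicate 3. ND-B17 had a signal of 43.3 in replicate 2 (rank 2071) and 33.3 in replicate 3 (rank 2127), with a pooled signal of 68.7. It sat near the threshold with nearly the same rank in both. The gene of complex I with the highest signal that was not bound was ND-B8 (pooled signal 56.3, rank 3350).

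In complex II, succinate dehydrogenase, 2 of 8 genes were bound (25%, against 19.7% of all genes), or 2 of the 5 that are not L copies. SdhD, a membrane anchor that helps to hold the heme, had a signal of 49.1 in replicate 2 (rank 1661) and 41.8 in replicate 3 (rank 1300), with a pooled signal of 92.6. Sdhaf3, which assists the iron-sulfur subunit during assembly, had a signal of 42.0 in replicate 2 (rank 2192) and 24.97 in replicate 3 (rank 3901), with a pooled signal of 69.0. Both summits lay within 22 bp of the start, and SdhD alone ranked among the strongest peaks of both replicates. The catalytic genes SdhA, for the flavoprotein, and SdhB, for the iron-sulfur protein, had relaxed summits of pooled signal 47.0 (rank 4479) and 57.0 (rank 3300).

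In complex III, the cytochrome bc1 complex, 0 of 9 genes were bound (against 19.7% of all genes), in the pool and in either replicate alone. Of the 9, 6 had a pooled relaxed summit, the best of them that of UQCR-14 with a signal of 57.8 (rank 3219), 964 bp upstream of the start and in a 3′ UTR of the neighbour eas. UQCR-C2, one of the large core proteins, had a summit of pooled signal 35.8 (rank 7131), and UQCR-C1, the other, had none in the pool. Of the 2 subunits that carry its redox centres and are encoded in the nucleus, RFeSP (the Rieske iron-sulfur protein) was bound and Cyt-c1 was not. Both have symbols outside the rule.

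In complex IV, cytochrome c oxidase, 5 of 16 genes were bound (31.2%, against 19.7% of all genes). With each summit given to the nearest start the count was 3 (18.8%, against 13.9%). COX6B, a subunit on the side of the intermembrane space, had a signal of 90.4 in replicate 2 (rank 469) and 63.9 in replicate 3 (rank 478), with a pooled signal of 159. COX5A, a subunit on the matrix side, had a signal of 104 in replicate 2 (rank 352) and 42.1 in replicate 3 (rank 1289), with a pooled signal of 144. Both ranked high in the pool and in each replicate. COX7B had a signal of 51.4 in replicate 2 (rank 1521) and 35.6 in replicate 3 (rank 1858), with a pooled signal of 81.9. COX8 had a signal of 39.97 in replicate 2 (rank 2377) and 31.6 in replicate 3 (rank 2414), with a pooled signal of 69.7. These small accessory subunits were thus bound with lower signal, within the strongest peaks of both replicates. COX4, the largest nuclear subunit, had only a relaxed summit of pooled signal 29.7 (rank 10002).

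The ATP synthase had 3 of 15 genes bound (20%, against 19.7% of all genes), none of them a subunit of the catalytic head. The alpha subunit of that head, blw, has a symbol outside the rule and was bound (pooled signal 161, rank 410). ATPsynE, for subunit e, which helps the enzyme to form dimers, had a signal of 69.2 in replicate 2 (rank 858) and 27.8 in replicate 3 (rank 3158), with a pooled signal of 92.2. The value of replicate 3 belongs to another peak, 871 bp downstream of the nearest start. The summits of replicate 2 and of the pool lay 33 bp and 15 bp upstream. ATPsynO, for the stalk protein named OSCP in mammals, had a signal of 34.5 in replicate 2 (rank 3070) and 27.6 in replicate 3 (rank 3217), with a pooled signal of 64.8. It was the single bound gene of the 18 outside the strongest peaks of both replicates. ATPsynD, for subunit d of the peripheral stalk, had a signal of 27.6 in replicate 2 (rank 4466) and 39.3 in replicate 3 (rank 1489), with a pooled signal of 64.7. Its summit lay 737 bp upstream of its start but 7 bp from that of the kinase gene cdi, in the 5′ UTR of cdi. ATPsynbeta, for the catalytic subunit, missed the threshold with a pooled signal of 59.2, and ATPsynC, for the rotor ring, with 54.2 (rank 3571).

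The L copies stood below their plain genes in 23 of 24 pairs, counting a missing summit as the lowest. All 21 plain genes, levy, cype and sun included, had a pooled summit, and 4 were bound, namely ND-24, ND-51, levy and cype. The summits of ND-51, levy and cype lay nearer to the start of another gene. That of levy was 208 bp from its own start and 43 bp from that of wmd. That of cype was 436 bp from its own start and 108 bp from that of Ncoa6. No pooled summit lay within 1 kb of 15 L copies, which were ATPsynCF6L, ATPsynGL, ATPsynbetaL, ATPsynepsilonL, COX4L, COX6CL, COX7AL, ND-20L, ND-24L, ND-49L, ND-B14.5AL, SdhAL, SdhCL, UQCR-14L and UQCR-6.4L. The contrast was widest for ND-24, with a pooled signal of 165 against no summit at ND-24L, and for levy, with 119 against 18.8 at COX6AL (rank 22516) and 16.9 at COX6AL2 (rank 26600).

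Of the 9 L copies with a pooled summit, 8 had a weak one. ND-51L2 had a pooled signal of 30.2 (rank 9692) and ND-51L1 of 17.8 (rank 24610), against 114 for ND-51. COX7CL had a pooled signal of 29.1 (rank 10302), against 60.7 for COX7C. UQCR-11L had 22.4 (rank 16543) against 33.0 for UQCR-11, COX5BL 17.7 (rank 24791) against 35.2 for COX5B, and SdhBL 16.05 (rank 28840) against 57.0 for SdhB. All 9 summits lay upstream, by 310 to 996 bp, with a median of 573 bp, farther out than the median of 61 bp upstream in the 61 plain genes with a summit.

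COX7AL2 was the exception. It had a signal of 34.5 in replicate 2 (rank 3068) and 37.0 in replicate 3 (rank 1710), with a pooled signal of 72.8 (rank 2113), against a pooled signal of 55.6 (rank 3429) for COX7A. It was the one bound gene of the 18 with more than 1 thresholded summit in reach, and the best of them lay 573 bp upstream of the nearest start, in an intron of the gene itself. With a distance of 500 bp in place of 1 kb no L copy was bound, and none was among the strongest peaks of replicate 2.

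The stretch before the start of ND-24L, the one L copy whose plain gene has its sequence shown above, is given on the strand of the gene. It covers chr3L:17320812-17320910 on the minus strand of dm6, and no searched word lay in it. The stretch of ND-24 shown above lies in the 5′ UTR and so is not the same region. No searched word lay in that one either.
ND-24L: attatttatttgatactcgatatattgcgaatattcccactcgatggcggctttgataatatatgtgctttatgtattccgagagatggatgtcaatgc

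L copies also differed from the plain genes in where they lie. Another coding gene began within 1 kb of a start in 44 of the 64 plain genes (68.8%) and in 7 of the 24 L copies (29.2%), against 42.8% of all genes. Plain genes with such a neighbour were bound more often, 13 of 44 (29.5%), against 32.4% of all genes with one. Of the 7 L copies with such a neighbour 1 was bound (14.3%). It was COX7AL2, whose bound summit had no start of another gene within 1 kb. Among genes with no neighbour, 4 of 20 plain genes (20%) and 0 of 17 L copies were bound, against 10.2% of all genes. A pooled relaxed summit was found at 18 of those 20 plain genes (90%) and at 5 of those 17 L copies (29.4%), against 49.8% of all genes. Whether the embryo expresses the copies was not measured here.

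A close neighbour also means that a summit cannot be given to 1 gene. Of the 18 bound summits, 13 had the start of another coding gene within 1 kb, and 6 (33.3%) lay nearer to that start than to the respiratory gene, against 32.3% of all bound genes. The 6 were those of COX6B (nearest other start that of CG33932, 35 bp away), ND-MWFE (TppII, 21 bp), ND-SGDH (RhoGAP68F, 107 bp), ND-51 (CG13994, 101 bp), COX7B (Sec3, 72 bp) and ATPsynD (cdi, 7 bp). That of ND-MNLL lay 59 bp from its own start and 59 bp from that of CG45089. With each summit given to the nearest start only, 12 of the 88 genes were bound (13.6%), against 13.9% of all genes. The 5 bound genes with no other start in reach were SdhD, COX7AL2, Sdhaf3, ND-B17 and ATPsynO.

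Besides Fum1, some of the partners at shared summits are themselves known for work in mitochondria. ND-42 shared its summit, 112 bp from its own start, with Cchl, whose start lay 117 bp away and which encodes the lyase that attaches heme to cytochrome c. The summit of ATPsynD was also within 1 kb of mRpL55, a protein of the mitochondrial ribosome. Others are not: corolla, 101 bp from the ND-24 summit, acts in meiotic chromosome pairing, glo, 114 bp from that of COX5A, binds RNA, and VhaM9.7-b, 347 bp from that of COX8, codes for a subunit of the vacuolar proton pump.

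The bound summits lay close to the start and on its upstream side. Of the 18, 17 (94.4%) were upstream of the nearest start of their gene, against 85.7% of all bound genes. Within 200 bp of it were 15 (83.3%), against 64% of all bound genes. Those of COX5A, COX7AL2 and ATPsynE, counted as upstream, nevertheless lay inside their own gene, each of which has more than 1 start. The median position was 88 bp upstream for the 18, within a range from 737 bp upstream to 59 bp downstream, and 117 bp upstream for the 2750 bound genes in all. Between genes lay 11 of the 18 summits, in introns 4 and in 5′ UTRs 3, and none lay in a coding exon. Their median pooled signal was 92.4, against 96.1 for all bound genes.

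**Figure D3:**
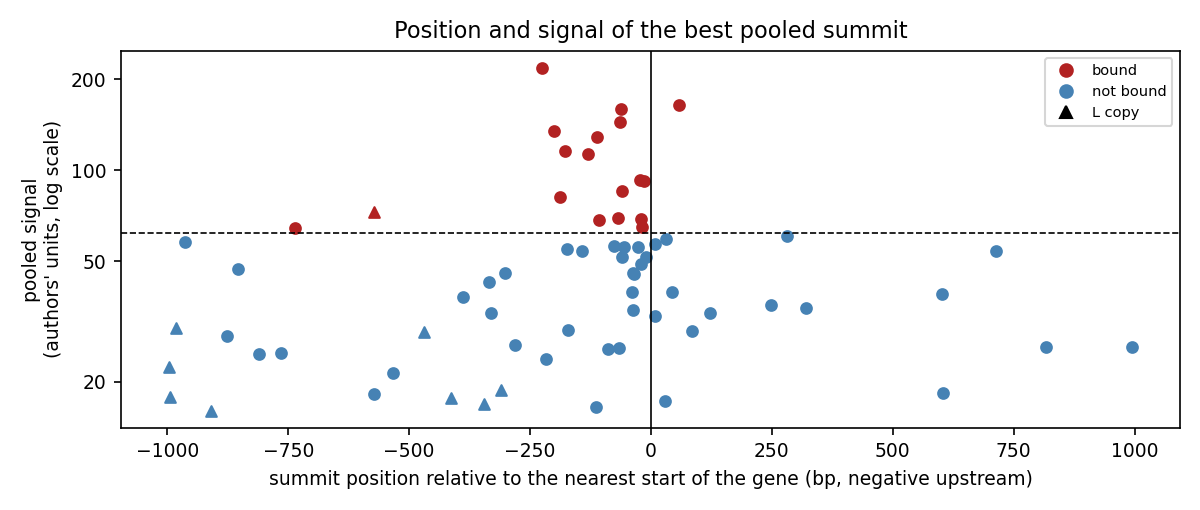
Position of the best pooled summit relative to the nearest start of the gene (bp, negative upstream) against its pooled signal (authors' units, log scale) for the 70 genes with one; red points are bound, blue points are not, triangles are L copies. All but 1 of the red points lie upstream and 15 of 18 within 200 bp, whereas the blue points spread over the whole window and the triangles all lie at 310 bp or more upstream.

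The replicates ordered the genes in a partly similar way, less closely than they ordered all genes, with more exchange near the threshold. Spearman's rho between the signals of the replicates was 0.627 over the 63 genes with a summit in both, and 0.748 over 7642 genes in all. Over the 18 bound genes it was 0.445, against 0.644 over 2748 bound genes in all. These values are across genes, which are not independent replicates, and both replicates come from 1 line and 1 pooled age range. Of the 18 bound genes, 11 were among the strongest peaks of both replicates, 6 of 1 and 1 of neither. Of the 70 not bound, 10 were among the strongest peaks of 1 replicate and none of both.

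Genes on opposite sides of rank 2876 in the 2 replicates numbered 9 with replicate 2 the higher and 7 with replicate 3 the higher. Among the strongest peaks were 20 of the 88 genes in replicate 2, 18 in replicate 3 and 11 in both. Over all 13968 genes these counts were 2699, 2715 and 2035. The replicates thus shared a smaller part of their calls at the 88 genes than over all genes. The largest gap was that of SdhA, with a signal of 13.2 in replicate 2 (rank 19051) and 30.9 in replicate 3 (rank 2526). ND-B14.5B showed the opposite order, with 41.2 in replicate 2 (rank 2256) and 12.997 in replicate 3 (rank 13791). COX7A, with 42.0 in replicate 2 (rank 2182) and 13.8 in replicate 3 (rank 12361), and ATPsynB, with 36.9 in replicate 2 (rank 2724) and 15.1 in replicate 3 (rank 10381), also ranked higher in replicate 2. ND-23, for a core subunit of complex I, had 21.0 in replicate 2 (rank 7362) and 30.2 in replicate 3 (rank 2666), and ND-B22 had 26.9 in replicate 2 (rank 4680) and 37.6 in replicate 3 (rank 1653). In ATPsynB and ND-B22 the best summits of the replicates lay at different places, so their gaps do not compare 1 peak. That of ATPsynB lay 9 bp upstream in replicate 2 and 804 bp downstream in replicate 3. That of ND-B22 lay 554 bp downstream in replicate 2 and 11 bp downstream in replicate 3. None of the 6 genes from SdhA to ND-B22 was bound. SdhB ranked 2648 in replicate 2 and 5744 in replicate 3, and it too was not bound. The bound genes ND-51, ND-MNLL and ATPsynD, described above, complete the 10 widest gaps.

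**Figure D4:**
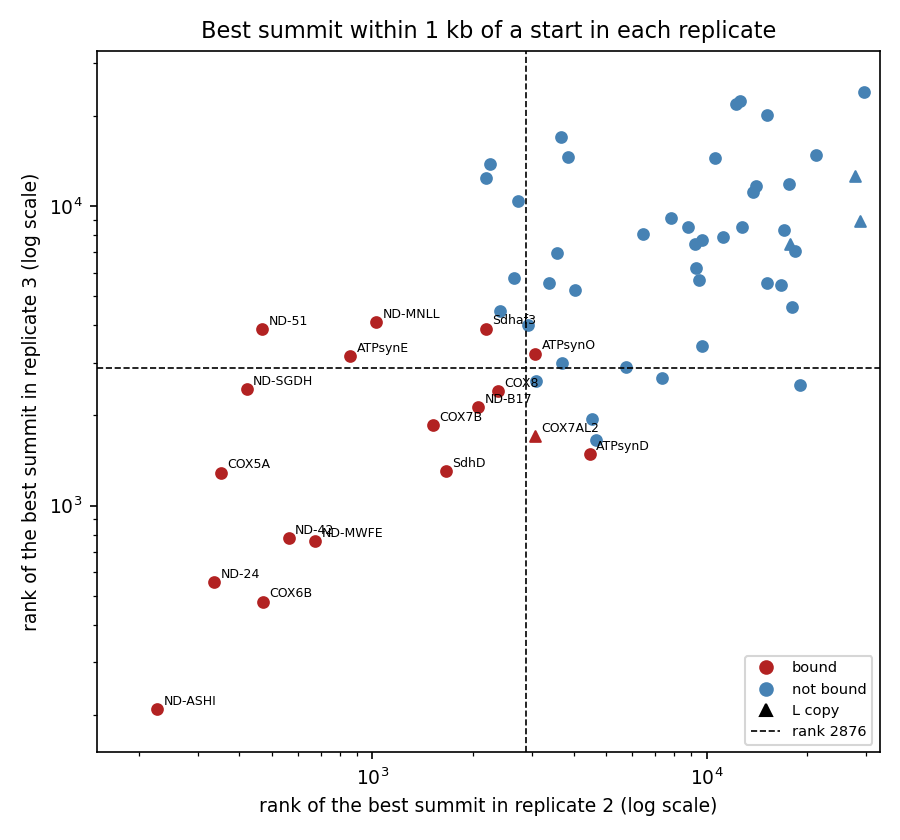
Rank of the best summit within 1 kb of a start in replicate 2 and in replicate 3 (log scales, 1 is strongest) for the 63 genes with a summit in both; red points are bound and named, blue points are not bound, triangles are L copies, and dashed lines mark rank 2876. The 11 genes in the lower left corner are all bound, and ND-ASHI (ranks 227 and 209) lies farthest into it.

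Words known from promoters were then searched on both strands, in the window from 250 bp before to 50 bp after the start used by most transcripts of a gene. GGTCACAC, the word of the promoter factor M1BP, was present at 15 of the 88 genes (17%), against 7.77% of all genes. It was as common in plain genes that were not bound (10 of 47, 21.3%) as in the bound ones (4 of 18, 22.2%), and 1 of the 24 L copies held it. COX7AL2, the bound L copy, is counted in the last 2 groups. All bound genes held the word in 11.6%. The 15 genes had 16 copies, 8 of them between 100 bp before the start and the start itself, with a median position 17.5 bp upstream. TG followed the word in 11 of the 16 copies (68.8%), against 46.1% of the 1136 copies in all promoters.

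Examples from complexes I, IV and V show the word (in capitals, with any CAGCTG, an E-box, also in capitals) in the promoter window, on the strand of the gene, where its flanks can be compared. The examples all read GGTCACAC on that strand, as do 10 of the 16 copies, and the others read it on the opposite strand.
ND-18: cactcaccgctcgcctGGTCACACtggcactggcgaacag
ND-ACP: attgcgcatacGGTCACACtgctaccttgc
ND-B17: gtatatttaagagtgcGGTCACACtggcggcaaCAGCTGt
COX4: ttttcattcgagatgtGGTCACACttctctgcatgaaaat
COX5B: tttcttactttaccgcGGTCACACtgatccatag
COX7B: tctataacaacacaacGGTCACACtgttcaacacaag
ATPsynC: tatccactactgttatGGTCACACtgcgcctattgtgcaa
In dm6 these lie at chrX:19492402-19492441, chr3L:1329971-1330000, chr2L:19958635-19958674, chr2L:6557796-6557829 and chr3L:17425470-17425506 on the plus strand, and at chr2L:15751070-15751109 and chr3R:31219773-31219812 on the minus strand. Of these genes ND-B17 and COX7B were bound. In ND-B17 the word lay 11 bp upstream of the start and 97 bp from the summit. In ATPsynC, not bound, it lay 233 bp upstream and 19 bp from the pooled relaxed summit. In COX7B it lay 12 bp downstream of the start and 200 bp from the summit. Over all copies in the 88 genes, 3 lay within 100 bp of the pooled summit of their gene.

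TATCGATA, the word of the replication-related factor DREF, was present in the promoters of 9 of the 88 genes (10.2%), against 9.23% of all genes. It was found at 2 of the 18 bound genes (11.1%), against 15.5% of all bound genes, at 7 of the 47 plain genes not bound and at no L copy. Within 100 bp of the 18 bound summits it occurred at 2 (11.1%), against 9.14% of 2078 thresholded summits near starts, and those 2 belonged to ATPsynE and ATPsynD. Both are shown on the strand of the gene with the word in capitals.
ATPsynE: accaatacaacTATCGATAgccgcctgtca
ATPsynD: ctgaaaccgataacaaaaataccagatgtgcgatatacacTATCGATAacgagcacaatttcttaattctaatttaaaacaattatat
The stretch of ATPsynE, chr3R:14327039-14327068 on the plus strand, lies in the 5′ UTR of a transcript that begins farther upstream, and the middle of the word fell 15 bp upstream of the main start and on the summit itself (0 bp). The stretch of ATPsynD, chr3R:19094306-19094393 on the plus strand, lies beside the start of cdi. In COX4 and COX7A, which were not bound, TATCGATA lay 73 bp and 57 bp from the pooled relaxed summit.

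CAGGTAG, the only Zelda word searched, was about as rare at these genes as at others, and variants of it were not searched. No bound summit held it within 100 bp, against 1.44% of the 2078 thresholded summits near starts, and 2 promoters of 88 held it (2.27%), those of ND-19 and ND-MWFE, against 1.68% of all promoters. CAGCTG was present at 5 of the 18 bound summits (27.8%), against 14.1% of the summits near starts. Within 50 bp the count was 2 (11.1%, against 6.50%) and within 200 bp 9 (50%, against 27%). The best relaxed summits of the plain genes not bound held CAGCTG about as often within 100 bp, in 12 of 44 (27.3%). Within 50 bp these held it in 8 (18.2%) and within 200 bp in 14 (31.8%). CAGCTG was in the promoters of 23 of the 88 genes (26.1%), against 17.7% of all genes. TATAAA was present in 49 promoters (55.7%), against 45.5%. Promoters of the 88 genes had a lower GC content, with a median of 34.3%, against 38.0% for all genes, and the part of base composition in these shares was not tested. A count of 18 summits makes each of them worth 5.56%.

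**Figure D5:**
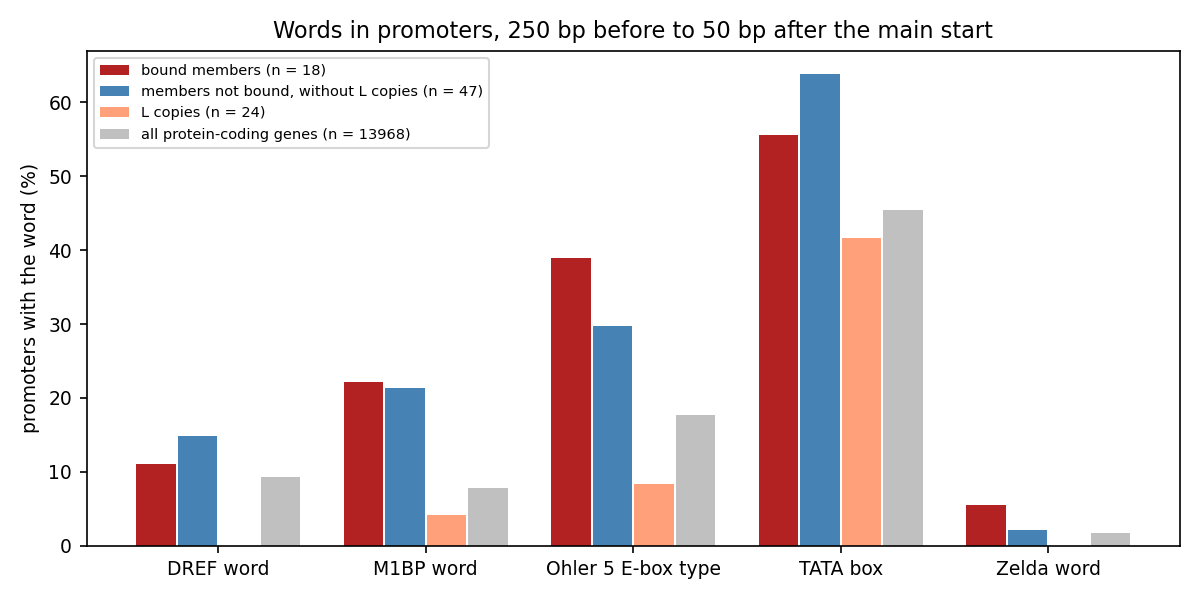
Share of promoters (%) that hold each of 5 words, from 250 bp before to 50 bp after the main start, for the bound genes (red, 18), the plain genes not bound (blue, 47), the L copies (orange, 24, including the bound COX7AL2) and all protein-coding genes (grey, 13968). The M1BP word stands at 22.2% and 21.3% in the bound and not bound plain genes, against 7.77% in all genes, and the DREF and Zelda words are absent from the L copies.

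Words named for other regulators of respiratory genes were found in few promoters, here and over all genes. The core TTACATAA of an element described in fly respiratory genes was in the promoters of 3 of the 88 genes (3.41%), against 2.12% of all genes, and its form TTACGTAA in none, against 0.458%. The ETS type word CCGGAAG and the NRF1 type word GCGCATGC, both known from mammalian respiratory genes, were in none of the 88 promoters, against 1.05% and 1.07% of all genes. AAGGTCA, of the estrogen-related receptor type, was in 1 (1.14%), against 2.11%, and CACGTG, of Myc and Max, in 4 (4.55%), against 4.2%. No match says only that these letters are not in the window searched.

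The bound genes were spread unevenly over the chromosome arms, in small numbers. On 3R 7 of 20 genes were bound (35%, against 21.5% of all genes on that arm), on X 4 of 13 (30.8%, against 16.6%), on 2L 3 of 16 (18.8%, against 19.5%) and on 3L 3 of 20 (15%, against 20.3%). On 2R the only bound gene of 17 was ND-MWFE (5.88%, against 20%), and neither of the 2 genes on chromosome 4 was bound.

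Genes of the same pathways with other symbols were counted in the same way. Of 12 further subunit or assembly genes of the chain and cytochrome c, 6 were bound (50%, against 19.7% of all genes). They were blw, the alpha subunit of ATP synthase (pooled signal 161), levy (119) and cype (68.1), subunits of complex IV, RFeSP (79.9) and both cytochrome c genes. The summits of levy and cype lay nearer to the starts of wmd (43 bp) and Ncoa6 (108 bp). Cyt-c-d, the cytochrome c gene known for its role in the testis, had 218 at 366 bp downstream of its start, a summit that lay 132 bp from the start of CG31808. Cyt-c-p, the cytochrome c of most tissues, had 70.9 at 917 bp downstream. With each summit given to the nearest start, 3 of the 12 genes were bound (25%, against 13.9% of all genes), and with a distance of 200 bp 2 were (16.7%, against 13.4%). Among the strongest 1438 peaks 3 were bound (25%, against 11.2%).

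In the tricarboxylic acid cycle and pyruvate dehydrogenase, 6 of 20 genes were bound (30%, against 19.7% of all genes): Fum1, by the summit it shares with ND-ASHI, Idh3g (164) and Idh3b (129) of NAD-dependent isocitrate dehydrogenase, mAcon1 (111), the aconitase, Pdhb (73.3) of pyruvate dehydrogenase and ScsbetaA (62.3) of succinyl-CoA synthetase. Of 13 assembly factors 4 were bound (30.8%, against 19.7% of all genes), led by CIA30 with a pooled signal of 362 (rank 64), a factor of complex I assembly, then Ttc19 (209), Cox17 (123), a copper chaperone, and Coa8 (84.4). With the nearest start alone 1 of the 13 was bound (7.69%, against 13.9% of all genes). Of 19 regulators of mitochondrial genes and mitochondrial DNA 9 were bound (47.4%, against 19.7% of all genes): ERR (120), the estrogen-related receptor, Dref (107), mtSSB (106), PolrMT (77.4), PolG2 (77.1), Ets97D (73.3), clu (67.1), mTerf5 (64.7) and M1BP (61.9). The best summits of ERR, M1BP and clu lay nearer to the start of another gene. That of ERR was 9 bp from the start of Atg18a and 195 bp from its own. With each summit given to the nearest start 7 of the 19 were bound (36.8%, against 13.9% of all genes). Among the strongest peaks of replicate 2 alone, without replicate 3, the count was 5 of 19 (26.3%, against 19.3% of all genes), and among the strongest 1438 peaks 3 (15.8%, against 11.2%). TFAM, which packs mitochondrial DNA, had no pooled summit within 1 kb.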

How the data were processed

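Anti-GFP ChIP-seq peak lists of vfl-GFP embryos (1 group, 2 biological replicates) were analysed. The lists are in narrowPeak format. The signal of each peak (its seventh column) is the authors' deposited value, and the sources used here do not state its scaling, the peak caller, the aligner or what the control held. Lists on dm3 were not used here. From these lists, summits were assigned to every protein-coding gene (Ensembl release 115, BDGP6.54, 13968 genes, 19630 transcript starts) with a start within 1 kb, and the strongest summit was kept for each gene and list. Bases came from the NCBI Release 6 assembly, whose arm lengths matched. Replicates were compared by their 2876 strongest peaks. The labels call the 2 replicates biological, and no test was run over them.

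L copies were found from symbols and RefSeq synonyms. The genes, the lists and the words were chosen with earlier results of these data known, and the grouping into core and other subunits of complex I was added after the values were seen, as was the use of the start with the most coding transcripts for promoters. Named in full are the 12 bound genes with the highest signal, the best bound and best unbound gene of each complex, every L copy, the 10 widest gaps of rank across the threshold and the bound genes of the lists; the other bound genes were added after their values were seen. Of the names in the lists 7 were not matched and are not used here. The assignment was tested on simulated data, with 500 of 500 planted summits given the right gene and distance. Calculations used Python 3.11.15, numpy 2.4.6, scipy 1.17.1 and matplotlib 3.10.9. Alternatives were distances of 500 bp, 200 bp and 2 kb, the nearest start alone, the strongest 1438 peaks, each replicate alone, the middle of the peak, the 5′ end of the gene alone, and word windows of 50 and 200 bp.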

Additional observations from a re-analysis of the deposited data

How the results depend on the processing

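The count of 18 bound genes was 16 at 500 bp (18.2%, against 17.6% of all genes), 15 at 200 bp (17%, against 13.4%), 22 at 2 kb (25%, against 23.7%) and 12 with the nearest start alone. Among the strongest 1438 peaks it was 10 (11.4%, against 11.2% of all genes), with 1 gene of complex II, 2 of complex IV and 1 of complex V. With the nearest start alone complex I had 5 bound genes (12.5%, against 13.9% of all genes), complex IV 3 (18.8%), and 5 genes were among the strongest peaks of both replicates (5.68%, against 9.37%). Bound L copies were 0 at 500 bp, at 200 bp and among the strongest 1438 peaks, and 0 to 1 with a replicate left out. The median position of -88 bp was -66.5 at 500 bp, -65 at 200 bp, -110 at 2 kb, -62 with the nearest start, -67 from the middle of the peak, -64.5 from the 5′ end of the gene, and -88.5 to -59 with a replicate left out. The fewer peaks or the shorter reach lower these counts by construction. Within 50 bp of the 18 bound summits TATCGATA was at 1 (5.56%, against 5.34% of summits near starts) and GGTCACAC at 0 (against 2.45%). Complex III had 0 bound genes under every alternative run. Of 133 ranks of genes taken in 1 replicate, 115 kept their side of the threshold, 10 came inside it and 8 fell outside. No paired analysis was possible because there is 1 group and no test between groups. The unknown read depth limits what a missing summit says: a weak peak may lie under the last of the 30000.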
